A study of Mus musculus with 50 samples.

Results

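Chromatin accessibility was described at 9 marker genes of hippocampal pyramidal neurons, Wfs1, Fibcd1, Mpped1, Pou3f1, Bok, Coch, Dcn, Man1a and Neurod6. Of the 144465 merged peaks, 48 overlapped the span of one of these genes or lay within 2 kb of it, and these 48 peaks are the regions described. The genes were chosen as a check of how much of the sorted material came from CA1 and ventral pyramidal neurons. The assay was ATAC-seq, which reads accessibility from where a transposase can cut DNA free of nucleosomes, and the material was neuronal (NeuN+) nuclei of the ventral hippocampus, taken from 1 side of each brain. All 50 mice were males of the inbred strain C57BL/6JRj, born and reared in 1 of 5 rearing facilities (RF1 to RF5) to dams from 1 breeder, and the frozen tissue of all of them carries hexane as its freezing condition. At time point 2 (TP2), 5 mice per RF were killed at 14 weeks of age in a common test laboratory without having been tested, and at time point 1 (TP1), 5 littermates per RF were killed at 8 weeks in their own RF. Nuclei were sorted in 5 batches per TP with 1 mouse of each RF in each batch, whereas amplification and sequencing were done in 1 batch per TP. Age, place and that batch therefore cannot be told apart between TP2 and TP1.

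Pyramidal neurons are the excitatory projection neurons of the hippocampal fields CA1 to CA3, and they share the NeuN+ gate with granule cells of the dentate gyrus and with inhibitory interneurons. Accessible DNA at the start of a gene is where transcription is initiated, and accessible DNA elsewhere in a gene often holds enhancers that are open only in the cell types that use them. Marker genes of a cell type are therefore commonly read as a measure of how many nuclei of that type a sorted sample holds. In bulk nuclei, fewer nuclei of a type and lower accessibility per nucleus cannot be told apart.

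The promoters of 4 of the genes are shown because their start-site peaks differ in base composition and in how far they moved between RFs. Each is the 250 bases before the start in the RefSeq annotation of GRCm38.p6, written 5′ to 3′ on the gene's strand, with CpG dinucleotides in capitals. The Wfs1 promoter lies at chr5:36988983-36989232, the Fibcd1 promoter at chr2:31846006-31846255, the Man1a promoter at chr10:54075738-54075987 and the Neurod6 promoter at chr6:55681264-55681513, all on the minus strand.
Wfs1: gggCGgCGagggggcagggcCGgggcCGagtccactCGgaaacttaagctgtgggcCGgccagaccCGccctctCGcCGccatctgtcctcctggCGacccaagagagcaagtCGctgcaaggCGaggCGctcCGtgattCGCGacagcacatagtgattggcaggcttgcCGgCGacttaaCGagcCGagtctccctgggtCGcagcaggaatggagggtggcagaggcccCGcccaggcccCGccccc
Fibcd1: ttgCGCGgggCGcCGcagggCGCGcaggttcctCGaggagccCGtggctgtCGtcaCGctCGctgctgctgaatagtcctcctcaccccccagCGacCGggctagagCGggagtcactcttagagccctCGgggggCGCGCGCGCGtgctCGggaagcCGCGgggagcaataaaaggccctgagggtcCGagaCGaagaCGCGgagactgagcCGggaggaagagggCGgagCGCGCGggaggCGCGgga
Man1a: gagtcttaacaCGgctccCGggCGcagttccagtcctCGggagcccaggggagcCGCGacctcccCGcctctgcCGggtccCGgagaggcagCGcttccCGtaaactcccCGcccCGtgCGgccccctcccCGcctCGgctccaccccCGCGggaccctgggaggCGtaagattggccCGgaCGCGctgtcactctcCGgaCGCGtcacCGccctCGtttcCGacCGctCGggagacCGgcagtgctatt
Neurod6: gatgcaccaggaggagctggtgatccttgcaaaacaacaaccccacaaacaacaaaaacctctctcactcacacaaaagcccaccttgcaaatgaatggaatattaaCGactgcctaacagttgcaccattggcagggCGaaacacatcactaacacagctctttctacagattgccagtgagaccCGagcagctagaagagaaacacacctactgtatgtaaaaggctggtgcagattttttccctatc
Wfs1, Fibcd1 and Man1a have CpG-rich promoters with 23, 34 and 31 CpG dinucleotides and a GC content of 69.6%, 71.6% and 72.4%. Neurod6 has 3 CpG dinucleotides and a GC content of 46.0%, below the median of 52.4% over 32851 mouse promoters. All 250 bases of each of these promoters lay inside a peak of its gene. RefSeq promoters were matched for 7 of the 9 genes, Mpped1 with 2 of them, and none was used for Pou3f1 and Dcn. For Pou3f1 and Dcn no start position was used either, and the peak called their start-site peak is the one with most counts within 2 kb of either end of the gene. The E-box motifs CAGATG and CAGCTG, read by basic helix-loop-helix factors such as Neurod6, and the octamer ATGCAAAT, read by POU-domain factors such as Pou3f1, were searched on both strands of the 8 matched promoters. The only match was CAGATG on the opposite strand of the Wfs1 promoter, printed as catctg at 170 to 165 bases before the start. Of all 32851 promoters, 14.4% held CAGATG, 13% CAGCTG and 1.60% the octamer.

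The 48 peaks were spread unevenly over the genes. Mpped1, a gene for a metallophosphoesterase-domain protein enriched in CA1, had 16 peaks, Man1a, which encodes a Golgi alpha-mannosidase, had 15, and Fibcd1, a transmembrane receptor gene used as a CA1 marker, had 5. Bok, a proapoptotic Bcl-2 family gene, and Dcn, which encodes the matrix proteoglycan decorin, had 3 each, and Coch, which encodes the extracellular protein cochlin, and Neurod6 had 2 each. Wfs1, the gene for the endoplasmic reticulum protein wolframin and a common CA1 marker, and Pou3f1, a transcription factor gene of CA1, had only their start-site peak. The windows of 4 genes also hold other annotated genes, namely Gm52172, Gm41370 and Gm41372 at Mpped1, Gm2164 at Pou3f1, Strn3 at Coch and Gm16998 at Man1a, and the counts do not separate them. A broad peak was called in all 50 libraries over 16 of the 48 regions, among them 7 of the 9 start-site peaks. Any overlap of a broad peak with a region was counted. By this count the median region was touched in 48 libraries and the least touched in 9. With an overlap of at least 50%, 0 regions were called in all 50 libraries. No share over all merged peaks is given, so these counts cannot be called particular to the marker genes.

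Start-site accessibility, given as the median over 50 libraries of normalised counts (CPM, counts scaled to the size of the library) per kb of peak, was highest at Wfs1 and Pou3f1 and lowest at Dcn and Coch. Wfs1 had a median of 11.9 CPM per kb with a range of 8.96 to 15.9, and Pou3f1 had 11.7 with a range of 8.52 to 17.2, and both exceeded 95.7% of all peaks. Mpped1 followed with 6.84 CPM per kb, Bok with 6.67, Neurod6 with 6.36, Man1a with 4.61 and Fibcd1 with 4.28, between the 77.5th and 89.7th percentiles of all peaks. Dcn had 2.28 CPM per kb (1.299 to 4.36) and Coch 2.12 CPM per kb (1.51 to 2.76), at the 34.5th and 23.5th percentiles. The ranges over libraries of each pair of neighbours in this order overlapped. Within libraries, Pou3f1 exceeded Mpped1 and Neurod6 exceeded Man1a in 50 of 50, and Fibcd1 exceeded Dcn in 48, whereas the other neighbours changed places, with the gene of higher median ahead in 24 to 33 libraries.

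The libraries held 5111223 to 36401717 counts at TP2 and 33663505 to 77396321 at TP1. At TP2, 3 of 25 libraries correlated best with a library of another RF over all peaks, namely RF1 replicate 3 (the shallowest library) with RF2, and RF1 replicate 5 and RF2 replicate 5 with RF5, whereas all 25 libraries at TP1 correlated best with their own RF. For each gene, the largest fold change of the gene sum at TP2 is also given without those 3 libraries where it moved by over 0.05 on the log2 scale. They were picked for their likeness to another RF, so leaving them out can by itself widen the differences between RFs. Fold changes, counts and p-values without them are a description and no separate support for a difference. The sample titles number RF1 replicate 5 as T25 and RF2 replicate 5 as T4 at TP2, whereas S25 and S4 at TP1 are RF5 libraries. RF5 replicates 1 and 5 at TP2 are numbered T26 and T27. Whether any library carries a wrong label was not tested, and each was kept in the RF that its label gives. Within groups, 20 of 100 library pairs differed by no more than sampling noise, but so did 7 pairs from different RFs at TP2, so all libraries were kept apart as separate mice and the pairs were summed only in an alternative. Start sites held 27.3% to 30.6% of counts at TP2, lowest in RF3 with at most 27.6%, and 28.3% to 34.4% at TP1, lowest in RF4 with at most 29.2%.

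Differences between RFs were tested within each TP on counts per peak and on counts summed over the peaks of a gene (gene sums) with edgeR's quasi-likelihood test across the whole table. A feature depended on RF at a Benjamini-Hochberg adjusted p (FDR) below 0.01, and it was a differentially accessible region (DAR) if at least 1 pair of RFs also differed by 0.5 or more on the log2 scale. At TP2, 22 of the 48 peaks depended on RF, against a background of 30.8% of all peaks, and 12 were a DAR, against 21%. At TP1, 33 of the 48 peaks depended on RF, against 59.1% of all peaks, and 19 were a DAR, against 38.6%. Without the 3 TP2 libraries nearest another RF, 35 peaks depended on RF at TP2, against 49.5% of all peaks in the same fit, and 22 were a DAR, against 36.1%. With 1 replicate number left out of all RFs, 13 peaks depended on RF at TP2 without replicate 1 (17.4% of all peaks), 10 without replicate 2 (16.1%) and 12 without replicate 4 (17.5%), and 7 were a DAR without replicate 2 (12.5%) and 20 without replicate 5 (30.3%). Of the gene sums, 6 of 9 depended on RF at TP2 (63.2% of all genes) and 6 of 9 at TP1 (80.9%), and 2 were a DAR at TP2 (20.1%) and 2 at TP1 (34.0%). In shares, 45.8% of the 48 peaks depended on RF at TP2 and 68.8% at TP1, both above the share over all peaks, while 25.0% and 39.6% were a DAR, close to it. Of the 9 gene sums, 66.7% depended on RF at either TP, above the share over all genes at TP2 and below it at TP1, and none of these differences in shares was tested.

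The calls came mainly from Man1a, Fibcd1 and Dcn. Man1a had 6 DARs among its 15 peaks at TP2 and 9 at TP1, Fibcd1 had 3 of 5 at TP2 and 4 of 5 at TP1, and Dcn had 1 of 3 at TP2 and 3 of 3 at TP1. Mpped1, with the most peaks, had 2 DARs at TP2 and 1 at TP1. Neurod6 and Pou3f1 had none at TP2 and 1 each at TP1, and Wfs1, Bok and Coch had none at either TP. Of the 9 start-site peaks, 8 depended on RF at TP2 and 7 at TP1, and 1 was a DAR at TP2 and 5 at TP1, whereas 14 of the other 39 peaks depended on RF at TP2 and 26 at TP1, with 11 and 14 DARs. No share over the start-site peaks of all genes is given, so this contrast cannot be called particular to the marker genes.

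**Figure D1:**
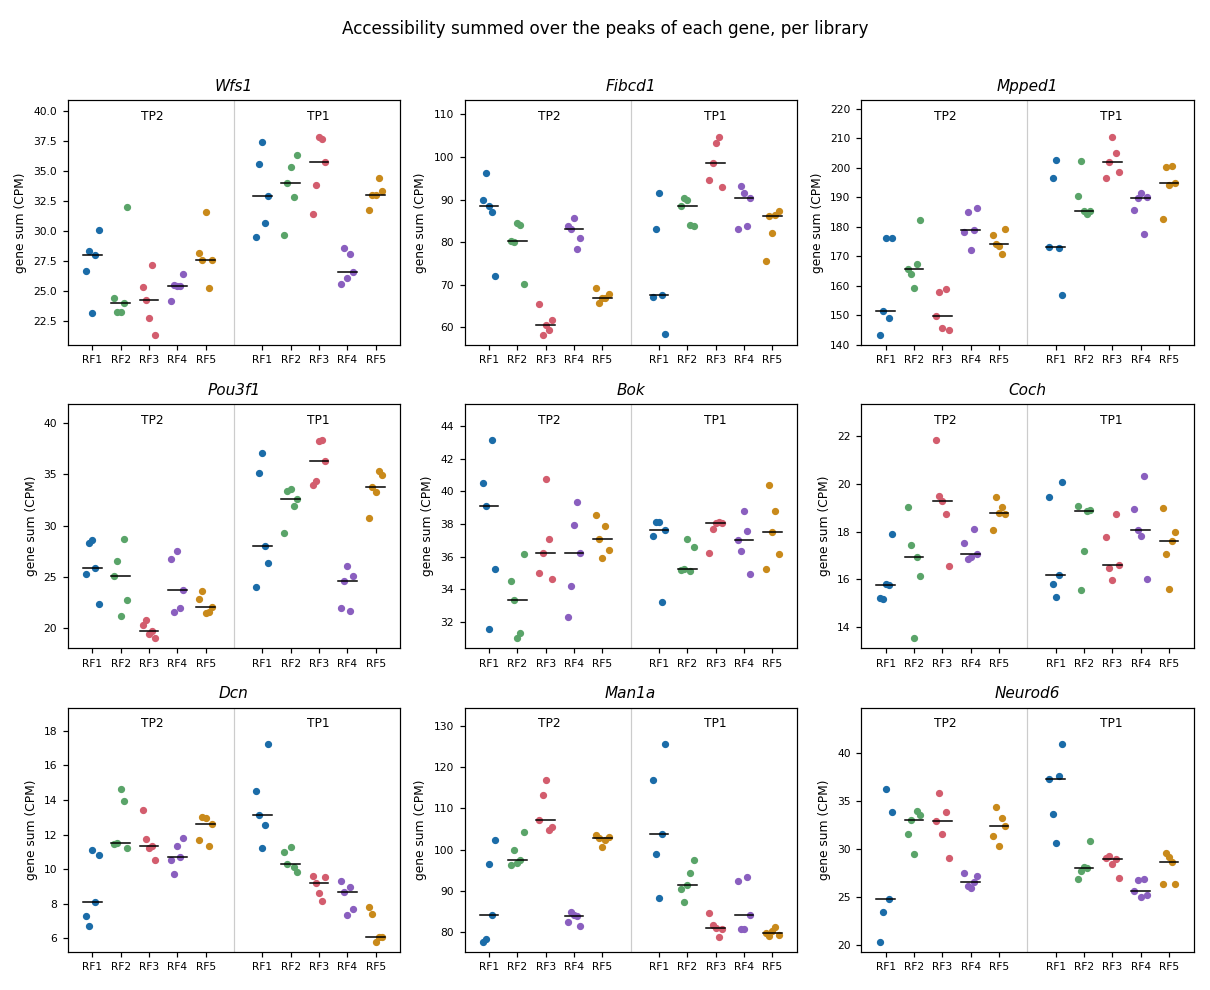
Accessibility of the 9 genes in every library. Each panel plots 1 gene, with its gene sum in CPM on the y axis and the 5 RFs at TP2 (left) and TP1 (right) on the x axis. Points are libraries (5 per group) and bars are group medians. At TP1 the 5 RF1 libraries of Dcn sit between 11.2 and 17.2 CPM, above all RF5 libraries at 5.80 to 7.81 CPM, and at TP2 the RF1 libraries sit between 6.73 and 11.1 CPM, below all RF2 libraries at 11.2 to 14.6 CPM.

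For each gene sum, the pair of RFs with the largest fold change at each TP is given, with its adjusted p over all genes within that contrast. Each pair was chosen for its size among 10, so its fold change describes the spread between RFs. Dcn, at chr10:97479500-97518163, varied most. At TP2, the Dcn gene sum was 7.30, 6.73, 11.1, 8.08 and 10.8 CPM in the RF1 libraries, against 11.4, 11.5, 14.6, 13.9 and 11.2 CPM in the RF2 libraries. All RF1 libraries lay below all RF2 libraries, but RF1 replicates 3 and 5 lay close to them. The log2 fold change was -0.54 ± 0.11 (SE, n = 5 each, edgeR adjusted p = 0.0024), and -0.77 without the 3 libraries nearest another RF. With replicate 1, 2 or 4 left out, it was -0.51, -0.48 or -0.47, with adjusted p-values of 0.061, 0.068 and 0.073. RF1 was also lower than RF5 at TP2, by a log2 fold change of -0.53 (adjusted p = 0.00021).

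At TP1 the position of RF1 was the opposite one. The Dcn gene sum was 14.5, 13.1, 11.2, 12.6 and 17.2 CPM in the RF1 libraries, against 7.81, 7.39, 5.80, 6.05 and 6.07 CPM in the RF5 libraries. No RF1 library came near an RF5 library, with a log2 fold change of 1.04 ± 0.09 (adjusted p = 8.9e-10). The RF2 libraries, at 9.84 to 11.3 CPM, also stood above RF5, with a log2 fold change of 0.66 (adjusted p = 9.3e-06), and RF1 exceeded RF3 by 0.61 and RF4 by 0.71 on the log2 scale. All 3 Dcn peaks had the same direction in RF1 over RF5 at TP1, with log2 fold changes of 0.96 to 1.17. The intragenic peak at chr10:97492166-97493650 had 6.10, 6.54, 4.57, 4.77 and 7.75 CPM in RF1, against 3.29, 3.42, 2.36, 2.44 and 2.33 CPM in RF5. The start-site peak at chr10:97478168-97480389 had 6.84, 5.52, 5.04, 6.72 and 7.94 CPM in RF1 and 3.90, 3.46, 2.96, 2.89 and 3.09 CPM in RF5. At both peaks every RF1 library exceeded every RF5 library.

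Man1a, at chr10:53904785-54076616, is the longest of the 9 genes, and its 15 peaks moved as a block. At TP2, its gene sum was 107.3, 113.3, 116.8, 104.9 and 105.4 CPM in the RF3 libraries, against 82.6, 85.0, 84.3, 84.1 and 81.5 CPM in the RF4 libraries. The groups did not overlap and the log2 fold change was 0.39 ± 0.05 (SE, n = 5 each, edgeR adjusted p = 1.2e-07), and all 15 peaks were higher in RF3, by 0.20 to 0.58 on the log2 scale. At TP1, the gene sum was 117.0, 99.0, 88.3, 103.7 and 125.6 CPM in the RF1 libraries, against 79.9, 79.1, 80.5, 81.2 and 79.4 CPM in the RF5 libraries. Again every RF1 library exceeded every RF5 library, although RF1 varied far more than RF5, and the log2 fold change was 0.41 ± 0.06 (adjusted p = 1.0e-06). All 15 peaks were higher in RF1, by 0.07 to 0.71 on the log2 scale, and 6 of them were a DAR in this pair, in which 12.9% of all peaks were a DAR that was higher in RF1.

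The start-site peak of Man1a, at chr10:54073222-54078020, had 31.5, 27.2, 23.2, 26.9 and 32.4 CPM in RF1 at TP1, against 17.9, 18.01, 16.8, 19.5 and 18.4 CPM in RF4, with a log2 fold change of 0.65 ± 0.07 (edgeR adjusted p = 1.0e-11). The intragenic peak at chr10:53977963-53979900 had 5.00, 4.41, 7.21, 3.89 and 7.14 CPM in RF1 at TP2, against 9.22, 7.78, 8.40, 8.99 and 8.61 CPM in RF3. RF1 was lower in every library, by a log2 fold change of -0.67 ± 0.12 (adjusted p = 8.7e-06), and of -0.95 without the 3 libraries nearest another RF. RF1 replicates 3 and 5 were the 2 RF1 libraries nearest to RF3 at this peak, as they were to RF2 at Dcn.

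Neurod6, at chr6:55677818-55681263, encodes a basic helix-loop-helix factor expressed by pyramidal neurons of all hippocampal fields and of the cortex. At TP2, its gene sum was 20.3, 23.5, 36.2, 24.7 and 33.8 CPM in the RF1 libraries, against 31.5, 33.03, 29.5, 34.0 and 33.6 CPM in the RF2 libraries. The groups overlapped because RF1 replicates 3 and 5 were as high as RF2, and the log2 fold change of -0.29 ± 0.09 had an adjusted p of 0.032 (edgeR). Without the 3 libraries nearest another RF it was -0.53, with an adjusted p of 4.1e-13, and RF1 over RF3 was then -0.56. At TP1, the gene sum was 37.3, 33.6, 30.6, 37.6 and 40.9 CPM in RF1, against 25.7, 26.8, 25.0, 26.9 and 25.2 CPM in RF4. All RF1 libraries were above all RF4 libraries, with a log2 fold change of 0.48 ± 0.06 (adjusted p = 1.2e-07) that passed the DAR threshold without replicate 2 (0.52) or replicate 3 (0.51). The start-site peak at chr6:55680741-55682837 had 16.5, 16, 15.1, 20.05 and 21.1 CPM in RF1 at TP1, against 11.5, 11.6, 11.8, 11.6 and 11.7 CPM in RF4, a log2 fold change of 0.61 ± 0.07 (adjusted p = 2.4e-10).

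Fibcd1, at chr2:31813290-31846964, moved the other way between RF1 and RF3. At TP2, its gene sum was 89.8, 96.3, 88.4, 87.1 and 71.9 CPM in RF1, against 65.6, 58.3, 60.6, 59.4 and 61.8 CPM in RF3, with no overlap. The log2 fold change was 0.51 ± 0.05 (SE, n = 5 each, edgeR adjusted p = 2.2e-09), just past the DAR threshold, and it was below that threshold without replicate 2 (0.45), without replicate 3 (0.49) and without replicate 4 (0.50), and 0.58 (adjusted p = 4.3e-31) without the 3 libraries nearest another RF. At TP1, the gene sum was 67.1, 83.1, 91.6, 67.5 and 58.5 CPM in RF1, against 94.6, 98.5, 103.4, 104.8 and 92.9 CPM in RF3. Every RF1 library was below every RF3 library, RF1 replicate 5 most of all, with a log2 fold change of -0.43 ± 0.07 (adjusted p = 6.4e-06). All 5 Fibcd1 peaks followed the gene sum at both TPs.

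The Fibcd1 peaks with the lowest p at TP2 lay toward the 3′ end of the gene. The peak at chr2:31822347-31826633 had 44.5, 47.3, 45.2, 44.4 and 33.3 CPM in RF1 at TP2, against 31.1, 27.03, 29.1, 30.6 and 28.4 CPM in RF3, a log2 fold change of 0.55 ± 0.07 (edgeR adjusted p = 6.5e-10). The peak at chr2:31812339-31816322 had 15.1, 13.1, 14.5, 13.2 and 14.5 CPM in RF3 at TP2, against 19.4, 19.4, 21.2, 19.1 and 20.6 CPM in RF4, a log2 fold change of -0.51 ± 0.07 (adjusted p = 1.3e-07). In both cases the groups did not overlap, and RF3 was the low group. Without replicate 2, these log2 fold changes were 0.48 and -0.50, below the DAR threshold.

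Mpped1, at chr15:83779472-83858487, had the most peaks and the highest gene sum. At TP2, its gene sum was lower in RF3 than in RF4 without overlap, by a log2 fold change of -0.26 ± 0.04 (edgeR adjusted p = 1.1e-05). Without the 3 libraries nearest another RF, RF1 over RF4 was the largest instead, at -0.30 (adjusted p = 1.2e-17) against -0.19 (adjusted p = 0.011) with them. The peak at chr15:83853094-83854672 differed more, with 14.1, 14.0, 13.5, 14.8 and 13.9 CPM in RF3 and 19.6, 19.6, 18.7, 22.5 and 20.9 CPM in RF4. The peak at chr15:83831985-83833680 had 8.03, 5.95, 5.29, 6.89 and 6.95 CPM in RF3, against 10.1, 10.1, 9.98, 9.64 and 9.34 CPM in RF4. Both were DARs, with log2 fold changes of -0.53 ± 0.07 and -0.59 ± 0.11 (adjusted p = 4.1e-08 and 1.8e-05). At TP1 the gene sum of Mpped1 did not pass the test across RFs (FDR = 0.017), and its largest log2 fold change was -0.16 in RF1 over RF3, whose libraries overlapped.

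Wfs1, at chr5:36966104-36988982, and Pou3f1, at chr4:124657646-124660655, each have 1 peak, and both were lowest in RF4 at TP1. The Wfs1 peak at chr5:36988335-36990715 had 31.4, 33.8, 37.9, 37.7 and 35.8 CPM in RF3 at TP1, against 25.6, 28.5, 26.05, 28.05 and 26.6 CPM in RF4. The groups did not overlap, and the log2 fold change of 0.39 ± 0.05 (SE, n = 5 each, edgeR adjusted p = 3.0e-06) stayed below the DAR threshold. The Pou3f1 peak at chr4:124656285-124658517 had 34.0, 34.3, 38.3, 38.3 and 36.3 CPM in RF3, against 21.97, 24.6, 26.1, 21.7 and 25.1 CPM in RF4, a DAR with a log2 fold change of 0.60 ± 0.07 (adjusted p = 3.1e-07 for the gene sum). Without the trend with mean count (loess offset) it was 0.42 and with gene-sum scaling 0.46, both below the threshold. At TP2, Pou3f1 had 25.3, 28.3, 28.6, 25.9 and 22.4 CPM in RF1, against 20.3, 20.8, 19.5, 19.7 and 19.04 CPM in RF3, with no overlap and a log2 fold change of 0.38 ± 0.08 (adjusted p = 7.2e-05). Wfs1 did not pass the test across RFs at TP2 (FDR = 0.064), and RF3 at 21.3 to 27.2 CPM overlapped RF5 at 25.2 to 31.6 CPM.

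Start sites in general differed in the same pairs of RFs. In RF3 over RF4 at TP1, all 9 start-site peaks of the marker genes were above 0, with a median log2 fold change of 0.19, but the median over 16980 peaks at start sites was 0.22 as well, against -0.03 over all other peaks. RF4 had the lowest share of counts at start sites at TP1. In RF1 over RF3 at TP2, the median over all start-site peaks was 0.19 and over the 9 marker genes 0.10. The median of all gene sums was accordingly not 0 in these contrasts, but 0.12 in RF3 over RF4 at TP1 and 0.11 in RF1 over RF3 at TP2, and the fold changes of Pou3f1, Wfs1 and Fibcd1 should be read relative to it. Whether the share of counts at start sites set these differences was not tested.

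Bok, at chr1:93685575-93695770 and a marker of CA3, and Coch, at chr12:51593283-51606619, did not pass the test across RFs at either TP. The Bok gene sum lay between 31.0 and 43.1 CPM at TP2 and between 33.2 and 40.4 CPM at TP1, with an edgeR FDR of 0.10 at TP2 and 0.56 at TP1. Its largest log2 fold change at TP2 was 0.19 in RF1 over RF2 (adjusted p = 0.049), and 0.31 (adjusted p = 1.4e-06) without the 3 libraries nearest another RF. The Coch gene sum lay between 13.5 and 21.8 CPM at TP2 and between 15.3 and 20.3 CPM at TP1, with an FDR of 0.012 at TP2 and 0.66 at TP1. Its largest log2 fold change at TP2 was -0.26 in RF1 over RF3, whose libraries overlapped, and the value without the 3 libraries nearest another RF was -0.36. A p above the threshold does not show that these genes were equal between RFs. Without those 3 libraries all 9 gene sums depended on RF at TP2, against 79.9% of all genes in the same fit, whereas 6 did with them.

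**Figure D2:**
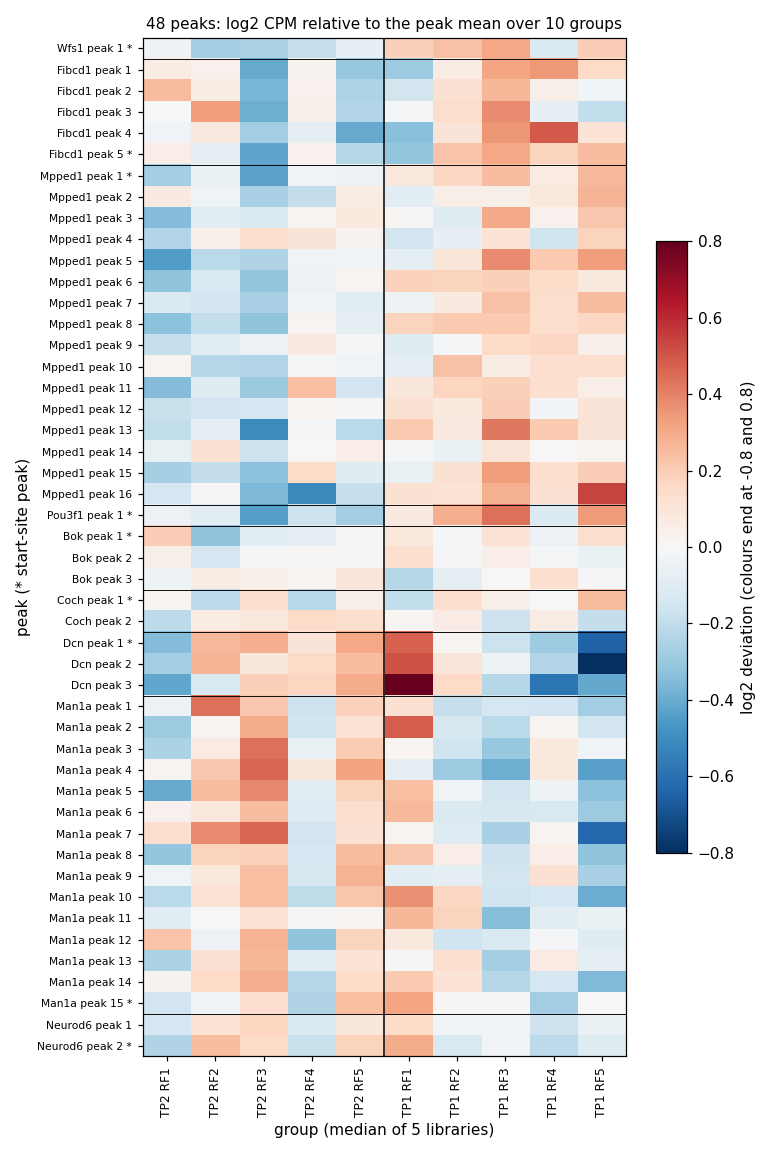
Every one of the 48 peaks in the 10 groups. Rows are peaks grouped by gene, with start-site peaks starred, columns are the 5 RFs at TP2 and then at TP1, and color is the log2 CPM of the group median relative to the mean of that peak over the 10 groups, clipped at 0.8 in either direction. All 15 Man1a peaks are higher in RF1 than in RF5 at TP1, and all 5 Fibcd1 peaks are lower in RF1 than in RF3 there, while the gene sums of Dcn and Man1a correlate at 0.83 over the groups and those of Fibcd1 and Man1a at -0.85.

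The 9 genes did not move as 1 set. Over the 10 group means, the Pearson correlation of the log2 gene sums was above 0 for 18 of the 36 gene pairs, with a median of -0.02 and a range of -0.85 to 0.92. These values share libraries and scaling within a group and are a description over 10 points. Apart from Bok and Coch, the genes fell into opposing sets. Man1a and Neurod6 had 0.86, Dcn and Man1a 0.83 and Dcn and Neurod6 0.76. In the other set, Wfs1 and Pou3f1 had 0.92, Mpped1 and Pou3f1 0.78 and Fibcd1 and Pou3f1 0.70. The opposition was strongest at Fibcd1, which had -0.85 with Man1a, -0.70 with Neurod6 and -0.59 with Dcn. It was weakest at Wfs1, which had -0.33 with Man1a, -0.28 with Dcn and 0.005 with Neurod6. The mean profile of the 9 genes consequently spanned only 0.20 on the log2 scale, between -0.08 in RF1 at TP2 and 0.12 in RF1 at TP1. By a rule that took the 5 other protein-coding genes with the highest correlation with this mean profile over the 10 groups, Inhbb (0.99), Maf (0.95), Ddx19b (0.95), Camk1g (0.94) and Bcl9 (0.94) were most alike, of 16821 genes compared, and 67 genes exceeded 0.9.

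The same opposing directions were seen in the chromosome regions in which the genes lie. The 1 Mb around Dcn and around Man1a holds 3 and 4 protein-coding genes, that around Neurod6 holds 8 and that around Coch 10. The 1 Mb around Bok holds 21, around Fibcd1 19, around Pou3f1 18, around Wfs1 16 and around Mpped1 15. In RF1 over RF3 at TP2, the log2 fold change of the Fibcd1 gene sum was 0.51 and the median of the other peaks within 500 kb was 0.39, of which 99.2% had the same sign. For Dcn, the gene sum gave -0.45 and the 59 neighbouring peaks a median of -0.48, all of them below 0. At TP1 the same contrast gave -0.43 for Fibcd1 and -0.50 for its neighbours, and 0.61 for Dcn and 0.56 for its neighbours, again with all 59 above 0. Bok in this contrast gave 0.07 and its neighbours a median of 0.02 at TP2, and -0.02 and 0.05 at TP1. Over the 9 genes the correlation between a gene and its neighbours in RF1 over RF3 was 0.98 at TP2 and 0.91 at TP1, where each pair of values shares libraries and region, and over all 10 pairs of RFs it ranged from 0.29 to 0.98 at TP2 and from -0.14 to 0.93 at TP1.

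**Figure D3:**
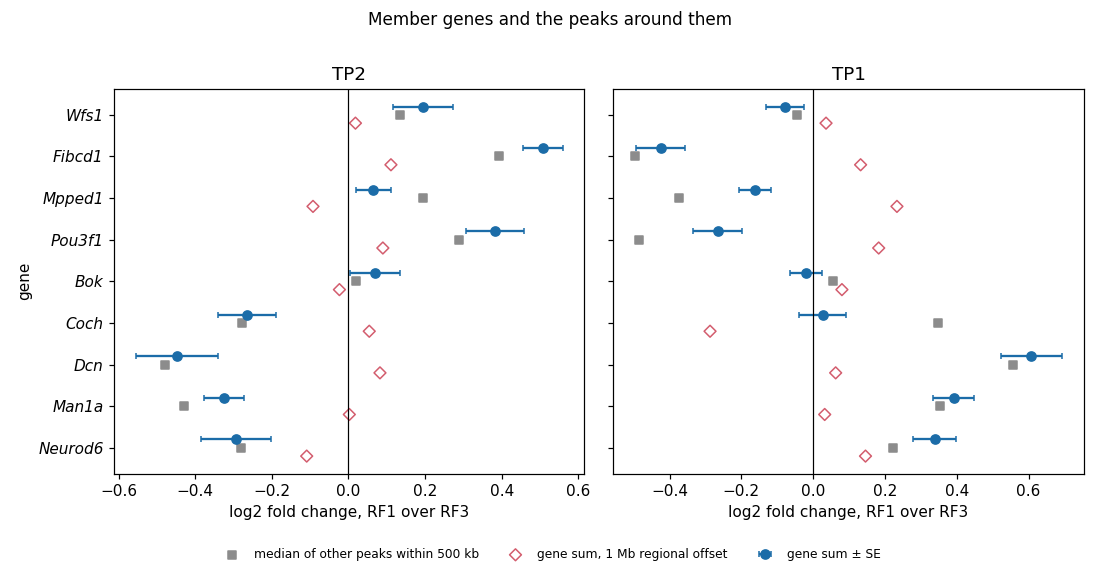
Fold changes of the 9 genes beside those of their surroundings. The x axis is the log2 fold change, RF1 over RF3, in panels for TP2 (left) and TP1 (right), and rows are genes; circles are gene sums with SE, squares the median of the other peaks within 500 kb, and open diamonds the gene sum relative to its 1 Mb region. Dcn gave -0.45 and its neighbours -0.48 at TP2, and 0.61 and 0.56 at TP1, while Dcn relative to its region gave 0.08 and 0.06.

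Relative to their own regions, the fold change given above for TP2 was smaller in all 9 gene sums, whereas 7 of the 9 gene sums still depended on RF at TP1. When the mean log2 deviation of the peaks in each 1 Mb bin was taken out of every library, which also takes out part of the gene's own signal, Man1a in RF3 over RF4 at TP2 gave 0.02 and Man1a in RF1 over RF5 at TP1 gave 0.01. Fibcd1 in RF1 over RF3 gave 0.11 at TP2 and turned to 0.13 at TP1, and Mpped1 in RF1 over RF3 at TP1 turned to 0.23. Dcn kept 0.54 in RF1 over RF5 at TP1 (edgeR adjusted p = 4.0e-10), Pou3f1 kept 0.48 in RF3 over RF4 at TP1 (adjusted p = 1.7e-13), Wfs1 kept 0.33 (adjusted p = 9.2e-08) and Neurod6 kept 0.24 in RF1 over RF4 (adjusted p = 2.0e-06). With this offset 6 peaks (9.55% of all peaks) and 1 gene sum, Dcn (34.0% of all genes), depended on RF at TP2, and 29 peaks (45.8%) and 7 gene sums (73.7%) did at TP1. Of the 29 peaks, 18 were among the 33 called without it, and of the gene sums at TP1 Mpped1 (FDR = 3.7e-18) and Coch (FDR = 3.0e-07) were called only with it and Man1a (FDR = 0.44) only without it. With it 2 peaks were a DAR at TP2 (3.54% of all peaks), neither of them among the 12 without it, and 8 at TP1 (19.8%), of which 5 were among the 19.

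Whether the differences between RFs changed between TP2 and TP1 was tested by the interaction of RF and TP. Littermates killed at TP2 and TP1 were treated as independent mice in this test. The interaction was passed by 33 of the 48 peaks, against 54.4% of all peaks. It was also passed by 7 of the 9 gene sums, against 79.2% of all genes. The lowest FDRs were those of Dcn (9.7e-12), Fibcd1 (3.1e-11), Man1a (9.2e-11) and Pou3f1 (1.4e-09), followed by Neurod6 (4.0e-06), Mpped1 (4.8e-05) and Wfs1 (0.00064), whereas Coch (0.017) and Bok (0.45) did not pass (edgeR). Among the peaks, the lowest were the Fibcd1 peaks at chr2:31812339-31816322 (1.8e-13) and chr2:31822347-31826633 (4.7e-11) and the Pou3f1 peak (3.8e-12). The fitted log2 fold change, RF1 over RF3, had opposite signs at TP2 and TP1 in all 9 genes, with all libraries and no regional offset. These include Bok (0.07 at TP2 and -0.02 at TP1) and Coch (-0.26 and 0.03), which did not pass. No share of all genes with opposite signs in this pair is given, so the sign change cannot be called particular to the marker genes. Signs in the other pairs of RFs are not counted here. The fold change was -0.45 at TP2 and 0.61 at TP1 for Dcn, -0.33 at TP2 and 0.39 at TP1 for Man1a, and 0.51 at TP2 and -0.43 at TP1 for Fibcd1. Wfs1 and Mpped1 had an absolute value of at most 0.19 at either TP. Without the 3 libraries nearest another RF, Mpped1 was -0.05 at TP2 and so had the sign it had at TP1 (-0.16). With the 1 Mb regional offset, Dcn (0.08 at TP2 and 0.06 at TP1), Fibcd1 (0.11 and 0.13), Pou3f1 (0.09 and 0.18), Wfs1 (0.02 and 0.04) and Man1a (0.002 and 0.03) had 1 sign at both TPs. Mpped1 (-0.09 and 0.23), Neurod6 (-0.11 and 0.15), Bok (-0.02 and 0.08) and Coch (0.05 and -0.29) had opposite signs with it.

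Averaged over the 5 RFs, none of the 48 peaks and none of the 9 gene sums differed between TP2 and TP1 in edgeR at an FDR below 0.01 together with a change of 0.5 or more on the log2 scale, against 2.64% of all peaks and 1.04% of all genes. DESeq2 also called 0 peaks and 0 genes, and edgeR called 1 peak without replicate 1. At an unadjusted p below 0.05, edgeR gave 37 peaks (60.6% of all peaks) and 6 genes (73.1% of all genes), and DESeq2 35 peaks and 6 genes, and the largest absolute log2 fold change of a peak was 0.45. By the FDR alone, 8 peaks were higher at TP2 (22.4% of all peaks) and 20 lower (22.5%), and 2 genes were higher (16.3% of all genes) and 4 lower (46.0%). The lower genes were Pou3f1 (log2 fold change -0.40 ± 0.04), Wfs1 (-0.31 ± 0.03), Fibcd1 (-0.20 ± 0.03) and Mpped1 (-0.20 ± 0.02). The higher ones were Dcn (0.23 ± 0.05) and Man1a (0.11 ± 0.03). These values should be read relative to the median of all gene sums, which was -0.08. With the 1 Mb regional offset, Dcn (-0.016), Man1a (-0.059) and Fibcd1 (0.024) changed sign. Pou3f1 (-0.24), Wfs1 (-0.14) and Mpped1 (-0.028) were then closer to 0. The median over all peaks at start sites was -0.14 and that over the 9 start-site peaks of the marker genes was -0.12, against 0.02 for other peaks, and age, place and batch cannot be told apart here.

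The sum over the 9 genes rests most on Mpped1, Man1a and Fibcd1, with medians over all libraries of 179, 92.0 and 83.7 CPM. It also adds up genes that moved in opposite directions, so it can hide changes of single genes. The group medians of this sum were 467, 489, 471, 487 and 498 CPM in RF1 to RF5 at TP2 and 519, 529, 543, 500 and 517 CPM at TP1, with single libraries between 443 and 562 CPM. In RF1 at TP2, replicates 3 and 5 had 508 and 501 CPM and the other 3 libraries 446 to 467 CPM. Of 21 other pyramidal neuron genes with a peak (of 22), 15 depended on RF at TP2 and 19 at TP1, with 3 and 4 DARs. The sums of this list ranged from 2035 to 2348 CPM over the libraries at TP2 and from 2029 to 2419 CPM at TP1. Its group medians were 2312, 2169, 2052, 2136 and 2083 CPM in RF1 to RF5 at TP2. At TP1 they were 2199, 2191, 2292.5, 2082 and 2266 CPM. RF1 at TP2 thus had the highest median of this list but the lowest median of the sum over the 9 genes.

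**Figure D4:**
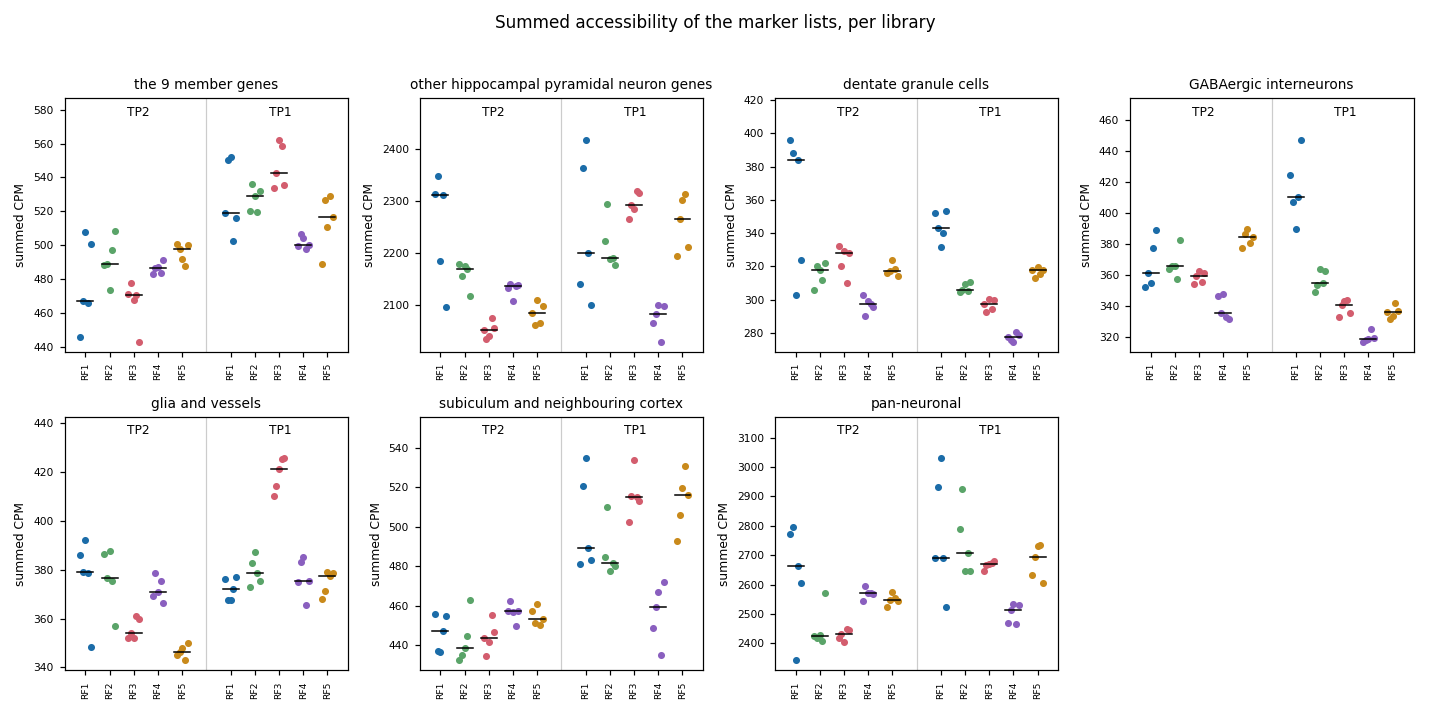
Summed accessibility of the 9 genes and of the lists of other cell types. Each panel plots 1 list, with the sum over its genes in CPM on the y axis and the 5 RFs at TP2 (left) and TP1 (right) on the x axis; points are libraries and bars group medians. The dentate granule cell list has RF1 libraries at 303 to 396 CPM at TP2 and at 332 to 353 CPM at TP1, where all RF1 libraries lie above the other RFs at 275 to 320 CPM.

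The lists for other cells in the sort are read against the 63.2% of all genes at TP2 and 80.9% at TP1 that depended on RF, and the 20.1% and 34.0% that were a DAR. All 10 dentate granule cell genes depended on RF at both TPs, with 2 DARs at TP2 and 5 at TP1, and their summed accessibility in RF1 at TP2 was 396, 388, 303, 384 and 324 CPM, against 290 to 332 CPM in the other RFs. RF1 replicates 3 and 5 were again the libraries within the range of the other RFs. At TP1, RF1 had 332 to 353 CPM and the other RFs 275 to 320 CPM. Of the 14 interneuron genes with a peak (of 15), 9 depended on RF at TP2 and 13 at TP1, with 1 and 6 DARs. Their sum in RF1 stood at 390 to 447 CPM at TP1, above the other RFs at 317 to 364 CPM. Of the 22 genes of glia and vessels with a peak (of 23), 16 depended on RF at TP2 and 21 at TP1. They had 7 DARs at TP2 and 12 at TP1, and their sum in RF3 was 410 to 426 CPM at TP1, above the other RFs at 365 to 387 CPM. Of 8 genes of the subiculum and neighbouring cortex, 7 depended on RF at TP2 and 7 at TP1, with 3 and 4 DARs. Of 7 pan-neuronal genes, 7 depended on RF at TP2 and 6 at TP1, with no DAR at either TP. No peak lay at Iyd, Vip or Cx3cr1, and no listed gene with a peak was at 0 in any group. What part the makeup of the sorted nuclei had in the differences at the 9 genes was not tested.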

How the data were processed

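ATAC-seq had been done on 50 libraries of sorted NeuN+ nuclei, 1 mouse each, in 10 groups of 5 (RF1 to RF5 at TP2 and TP1), as the labels give them. The authors trimmed reads with fastp, aligned them to GRCm38 with Bowtie2, marked duplicates with Picard 1.140, called broad peaks per library with MACS2 2.1.4, kept those found in at least 3 libraries of a group, merged them over groups, counted reads per merged peak with featureCounts without the duplicates and tested with DESeq2. The deposited table of the whole series holds whole-number counts per merged peak. A second deposited table is named as normalized but held the same values as the counts, so it was not used. Per library, the deposited peak lists give a score, a fold enrichment ratio (signal over background) and −log10 p- and q-values. The merged list gives, per the authors' methods, the number of groups in which a region was found, a number with no other unit. No column was without a sample (0).

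A merged peak belonged to a gene if it overlapped the gene's span in the RefSeq table for GRCm38.p6 or lay within 2 kb of it, and counts were summed over such peaks for every gene. Levels are CPM with TMM scaling. R 4.3.3 with edgeR 4.0.16 (quasi-likelihood test, TMM, low-count filter by group) was used, with RF and replicate number as terms within each TP and Benjamini-Hochberg adjustment over all features. Library sizes and TMM factors came from the peak table also for gene sums, a choice made after seeing the data. Correlations used log2 CPM with a pseudocount of 0.5. Promoters were matched by symbol. Alternatives were DESeq2 1.42.0, median-of-ratios size factors, no filter, a loess offset (span 0.3), removal of the mean deviation of each 1 Mb bin with at least 10 peaks, no replicate block, summing of libraries that differed by no more than sampling noise, leaving out replicates or the 3 TP2 libraries nearest another RF and, added after seeing the data, TMM factors from gene sums. The scripts were tested on simulated data. All 9 genes were described, with the start-site peak of each (of the peaks within 2 kb of the start, or of either end of the gene for Pou3f1 and Dcn, the one with most counts), the 5 DARs with the lowest p at each TP and the 3 peaks with the lowest interaction p. The genes and the lists (other pyramidal neurons, dentate granule cells, interneurons, glia and vessels, subiculum and neighbouring cortex, pan-neuronal) were chosen with earlier results of these data known. Depth was 5111223 to 77396321 counts per library, and arms of 5 libraries limit the precision. The p-values measure the spread between these mice. No litter was a term in any fit. The interaction test and the comparison of TP2 with TP1 therefore treat littermates killed at the different TPs as independent mice.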

Additional observations from a re-analysis of the deposited data

Results flagged for a closer look

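The differences between RFs themselves differed between TP2 and TP1 for 7 gene sums by the interaction of RF and TP in edgeR, with FDRs of 9.7e-12 for Dcn, 3.1e-11 for Fibcd1, 9.2e-11 for Man1a, 1.4e-09 for Pou3f1, 4.0e-06 for Neurod6, 4.8e-05 for Mpped1 and 0.00064 for Wfs1. The same test gave 1.8e-13 for the Fibcd1 peak at chr2:31812339-31816322, 3.8e-12 for the Pou3f1 peak and 4.7e-11 for the Fibcd1 peak at chr2:31822347-31826633. TP is confounded with age, place and sequencing batch, which cannot be told apart. With the 1 Mb regional offset the FDR was 0.49 for Man1a and 0.41 for the Fibcd1 peak at chr2:31812339-31816322.

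Single libraries stood far from the other 4 of their group in 4 of 90 groups examined, where chance gives about 1 in 20. Wfs1 had 32.0 CPM in RF2 replicate 5 at TP2, against 23.2 to 24.4 CPM in the other RF2 libraries, and that library correlated best with an RF5 library over all peaks. Coch had 17.9 CPM in RF1 replicate 5 at TP2, against 15.2 to 15.8 CPM, and that library also correlated best with an RF5 library. Bok had 33.2 CPM in RF1 replicate 4 at TP1, against 37.3 to 38.1 CPM, and 36.2 CPM in RF3 replicate 1 at TP1, against 37.7 to 38.1 CPM.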

How the results depend on the processing

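Of 569 values of 44 fold changes under the alternatives, 514 kept their direction and side of the threshold, 31 lost a call, 4 gained one and 20 changed sign, 9 of them with the 1 Mb regional offset. That offset gave 8 DARs at TP1 (19.8% of all peaks). At TP2 it gave 6 peaks that depended on RF (9.55% of all peaks), 2 DARs (3.54%) and 1 gene (34.0% of all genes). Of the DARs without it, 0 of the 12 at TP2 and 5 of the 19 at TP1 were among its own. At TP1, 7 genes depended on RF with it (73.7% of all genes). It turned the sign of Fibcd1 in RF1 over RF3 at TP1 (0.13), Mpped1 in RF1 over RF3 at TP1 (0.23) and in RF3 over RF4 at TP2 (0.033), Coch in RF1 over RF3 at TP2 (0.054) and, in TP2 over TP1, Fibcd1 (0.024), Bok (0.048), Dcn (-0.016), Man1a (-0.059) and the Man1a start-site peak (-0.20). In TP2 over TP1, where the first values were near 0, Bok also turned with the loess offset (0.098) and gene-sum scaling (0.056), Coch with the loess offset (0.062), with gene-sum scaling (0.079) and without replicate 1, 4 or 5 (a range of -0.022 to 0.013 over the 5 replicates), Neurod6 without the 3 TP2 libraries nearest another RF (-0.0040), and the Man1a start-site peak without those (-0.018) and without replicate 3 or 5 (a range of -0.0061 to 0.017 over the 5 replicates). The cause of these changes was not tested. Scaling by gene sums moved the median of all genes by -0.15 to 0.14 on the log2 scale.

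Summing libraries within sampling noise left 10 peaks that depended on RF at TP2. Leaving out the 3 libraries, which were picked for their likeness to another RF, gave 35 (49.5% of all peaks), with 22 DARs (36.1%). Without 1 replicate number, 10 to 26 peaks depended on RF at TP2 (16.1% to 38.9% of all peaks) and 23 to 34 at TP1 (47.3% to 58.3%). In these fits 7 to 20 peaks were a DAR at TP2 (12.5% to 30.3%) and 15 to 21 at TP1 (32.7% to 42.7%). Of the genes, 4 to 9 depended on RF at TP2 (46.7% to 72.4% of all genes) and 6 to 7 at TP1 (68.3% to 79.4%). The interaction held for 27 to 35 peaks and 7 to 8 genes, and 0 to 1 peaks and 0 genes differed between TP2 and TP1. With a −log10 q of at least 5, 2 regions were called in all 50 libraries, and with an overlap of at least 50%, 0 were. Without the replicate block, 23 peaks depended on RF at TP2 and 32 at TP1, with 12 and 19 DARs, 7 and 6 genes, and an interaction in 33 peaks and 7 genes. Where no share over all features stands beside a count, the count alone does not show whether the marker genes moved apart from the whole table. Libraries with the same number deviated together only weakly, with a mean correlation of 0.0022 over 50 pairs at TP2 (1 over 0.1) and 0.051 over 50 pairs at TP1 (12 over 0.1). Depth limits TP2 most, where the shallowest library held 5111223 counts.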
